A study of Mus musculus with 8 samples.

Results

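The transcripts described here are 32 interferon-stimulated genes, a set of type I interferon targets chosen by symbol among the 33696 genes counted in each library, and all 32 were found. The set was chosen with earlier results of these data known. Member counts set beside shares of all genes below therefore describe these data and are no test of the set. They were followed through 8 cell groups, each set by counting unique molecular identifiers (UMIs, 1 per captured transcript) of a few defining genes in a cell: CD8+ T cells, Treg cells, other CD4+ T cells, NK cells, B cells, microglia, neutrophils and neural cells. In all, 27509 cells met exactly 1 of these gates. No member was used in a gate, so the member levels were not part of the choice of cells.

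The cells came from brain tumors of EPZFTA-RELA mice (NestinCreERT2;Fus1;RFPTdT), in which a Nestin-driven, tamoxifen-dependent Cre turns on the ZFTA-RELA fusion joined to luciferase, a model of ependymoma. Both treatment groups carried this genotype. Tumor-bearing mice, 3 weeks old, were allotted at random to 1 intrathecal injection of mavrilimumab at 5 mg per kg, an antibody against the GM-CSF receptor alpha chain, or of control IgG (vehicle IgG), and tissue was taken at 6 to 8 weeks. The study describes the sequenced tumors of both treatments as taken at recurrence or endpoint. Beyond the age range, the time from injection to harvest in each library is not given here. Cells were stained for the leukocyte marker CD45 and the erythroid marker Ter119 and sorted. There were 2 gene expression libraries in each group. The study describes tumors pooled within each treatment group, but how many went into each library is not given in the sources used here, so p-values measure only the spread between libraries.

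Type I interferons bind a receptor of the chains Ifnar1 and Ifnar2, which through Jak1 and Tyk2 phosphorylate Stat2. With Irf9 it forms part of ISGF3, which binds the interferon-stimulated response element, a motif of GAAA repeats, in front of the target genes. The targets include antiviral proteins that bind or cut viral RNA, sensors that widen detection, and Usp18, which feeds back on the receptor. In the brain the same program is known in microglia, and it is also known in T cells and neutrophils.

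To show the element described above, the 250 bases before the start site are printed for the 4 members with the most counts in CD8+ T cells among those with an entry in the RefSeq promoter table (GRCm38.p6). Capitals mark GAAA repeats lying 2 bases apart. The Isg15 promoter (chr4:156200819-156201068, minus strand) held 3 overlapping copies of the core GAAANNGAAA, the first at base -78 from the start.

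Isg15: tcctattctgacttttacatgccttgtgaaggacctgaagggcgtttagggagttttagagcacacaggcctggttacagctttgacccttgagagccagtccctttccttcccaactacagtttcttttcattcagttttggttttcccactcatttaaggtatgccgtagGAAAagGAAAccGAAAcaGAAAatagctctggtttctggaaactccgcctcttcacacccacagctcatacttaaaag

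The Bst2 promoter (chr8:71537473-71537722, minus strand) held 2 copies, the first at base -130. Of the 2 Ifi203 entries in the promoter table, the 1 with more copies is printed (chr1:173942493-173942742, minus strand). It held 1 copy at base -35, and the other entry held none.

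Bst2: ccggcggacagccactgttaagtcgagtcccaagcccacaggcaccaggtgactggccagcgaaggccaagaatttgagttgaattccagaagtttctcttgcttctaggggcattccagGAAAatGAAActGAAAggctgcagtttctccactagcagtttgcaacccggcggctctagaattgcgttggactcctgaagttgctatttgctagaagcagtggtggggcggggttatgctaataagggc

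Ifi203: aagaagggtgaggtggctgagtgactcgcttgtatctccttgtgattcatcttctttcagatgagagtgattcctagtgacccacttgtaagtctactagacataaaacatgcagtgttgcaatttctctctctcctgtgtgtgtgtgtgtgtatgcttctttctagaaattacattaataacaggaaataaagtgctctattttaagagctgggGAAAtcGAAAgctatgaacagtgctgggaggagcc

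The Irf7 promoter (chr7:141266425-141266674, minus strand) held no copy in this window.

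Irf7: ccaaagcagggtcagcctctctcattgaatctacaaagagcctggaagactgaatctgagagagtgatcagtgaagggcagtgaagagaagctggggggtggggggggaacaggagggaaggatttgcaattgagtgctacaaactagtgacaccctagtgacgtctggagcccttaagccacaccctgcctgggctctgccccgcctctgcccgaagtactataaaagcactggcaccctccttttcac

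In all, 24 of the 32 members had a promoter in the table. The core GAAANNGAAA, or TTTCNNTTTC on the other strand, stood at least once within the 300 bases from 250 before to 50 after the start in 15 of them, 62.5%, and more than once in 6. Among all 27025 genes of the table the share was 3.99%. Besides the 3 printed promoters that held it, the core was present for Stat2, Ifih1, Ifit1, Ifit3, Ifit3b, Oas1a, Oas3, Rsad2, Trim30a, Slfn5, Slfn8 and Phf11b. A match describes the letters in this window and is not a measured binding site.

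Several facts about the libraries touch every value that follows. The libraries labelled vehicle IgG 1, vehicle IgG 2, mavrilimumab 1 and mavrilimumab 2 held 984, 26746, 6412 and 5490 kept cells, with median UMIs per cell between 3296 and 11759. Runs of 4 values follow this order, and runs of 3 leave out vehicle IgG 1. The neural gate, of cells without the leukocyte gene Ptprc, held 4, 15567, 2 and 419 cells. Most kept cells of vehicle IgG 2 were thus neural, unlike those of the other sorted libraries. In each of the 3 T cell receptor files read, the sample name inside the file gave the other treatment than the label. By shared barcodes, the file labelled vehicle IgG 1 matched the gene expression library of that label, with 182 of its 193 cells found there. The receptor files labelled mavrilimumab 1 and 2 matched expression libraries mavrilimumab 2 and 1, with 2491 of 2749 and 4867 of 5659 cells. All directions below follow the GEO labels, and which name is right cannot be told apart here.

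Between any 2 expression libraries, 0 to 60 kept barcodes were shared. Neural transcripts outside cells were high in the library labelled vehicle IgG 2: a list of 8 neural markers summed to 1260 to 1521 counts per 1000000 UMIs (CPM) in its T cells, NK cells and microglia, and to at most 60.1 CPM in those groups elsewhere. Free RNA, estimated per library and cell group from the list of foreign markers that gave the lowest share, made up 24.5% to 29.6% of the UMIs in those groups of vehicle IgG 2 by the neural list, and at most 4.0% of any group in the other libraries by the neutrophil, neural or T cell list.

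The member transcripts were themselves present in barcodes with 1 to 100 UMIs, which mostly hold free RNA, at summed CPM of 2833, 875, 9398 and 3825 in the order given above. In CD8+ T cells of the library labelled vehicle IgG 1 the 9 microglia markers summed to 3087 CPM, against 501 to 1099 in the others. The part of free RNA in the member levels was not tested beyond the subtraction given below. In CD8+ T cells of vehicle IgG 1 the list of 6 CD8+ T cell markers summed to 4695 CPM. All markers of the T cell, Treg, NK and microglia lists were detected in each tested sum, which other cells in a gate would not prevent. In the B cell gate the microglia list reached 1498 CPM and the B cell list 1448 CPM in its mavrilimumab 1 cells, and 1 of 6 B cell markers was detected in vehicle IgG 1.

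The question of the set was whether few or most cells carried these transcripts. To compare cells at 1 depth, each cell was thinned to 1000 UMIs (500 in neutrophils) and was counted when at least 3 of the 32 members remained. By this measure most CD8+ T cells, the cytotoxic lineage, were counted in the libraries labelled mavrilimumab, and a minority in those labelled vehicle IgG. That split depends on the measure: with at least 1 member the mean share was 91.4% against 83.7% (groups overlapping, exact permutation p = 0.667), with at least 5 members 49.6% against 21.4%, and with at least 3 members at 2000 UMIs 82.5% against 63.3%.

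The share of CD8+ T cells was 40.0% (95% Clopper-Pearson interval 28.0 to 52.9) in vehicle IgG 1, 37.1% (34.8 to 39.4) in vehicle IgG 2, 81.8% (79.9 to 83.5) in mavrilimumab 1 and 54.9% (52.5 to 57.2) in mavrilimumab 2. The groups did not overlap, and the mean share was 29.8 percentage points higher under mavrilimumab, or 16.3 points without mavrilimumab 1 and 43.2 points without mavrilimumab 2. The two-sided exact permutation test gave p = 0.333, the smallest value that 2 against 2 libraries allow. Without thinning the shares were 100%, 72.9%, 97.4% and 97.9%, at median depths of 14607, 2714, 4662 and 12333 UMIs.

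In microglia, the resident macrophages of the brain, the share was 38.2% (34.2 to 42.4), 26.9% (22.4 to 31.8), 68.4% (61.6 to 74.7) and 51.1% (47.3 to 54.9). These groups also stood apart, by 27.2 points, with an exact permutation p of 0.333. In other CD4+ T cells the share was 34.7%, 18.5%, 73.4% and 32.0% in the same order. There the groups overlapped (exact permutation p = 0.667), and the mean difference of 26.1 points was 5.41 points without mavrilimumab 1.

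Treg, NK and B cells had at least 20 cells in 1 vehicle library, vehicle IgG 2, so an exact test of 1 against 2 libraries cannot go below 0.667. The Treg share was 30.8% (14.3 to 51.8) of 26 cells in vehicle IgG 2, 88.9% (86.4 to 91.1) in mavrilimumab 1 and 61.8% (50.0 to 72.8) in mavrilimumab 2. With at least 1 member the mean Treg share was 97.1% against 96.2%, the groups overlapping. With at least 3 the difference was 44.6 points, or 27.0 points at 2000 UMIs and 29.4 points without the top 5% of cells by UMIs. The NK share was 16.1%, 50.0% and 40.5%, and the B cell share 8.64%, 21.4% and 20.8%. With at least 3 members vehicle IgG 2 was the lowest in all 3 groups. Vehicle IgG 1 had fewer cells: its share was 61.5% (31.6 to 86.1) of 13 Treg cells, level with mavrilimumab 2, 2 of 8 cells of the B cell gate (3.19 to 65.1%), and 0 of 4 NK cells (upper limit 60.2%). Most B cell markers were not detected in those 8 cells, so whether they were B cells cannot be told here.

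In both libraries with at least 20 cells of it, the neural gate, which holds cells without the leukocyte gene Ptprc, had the lowest share: 4.10% (3.80 to 4.43) of 15567 cells in vehicle IgG 2 and 13.1% (10.0 to 16.7) of 419 cells in mavrilimumab 2. By the markers of other cell types, free RNA was estimated to supply 77.0% of the member UMIs in the neural cells of vehicle IgG 2, and 6.61% to 14.9% in its immune groups. The median depth before thinning was 4003 UMIs in these neural cells and 2714 in the CD8+ T cells of the same library.

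**Figure D1:**
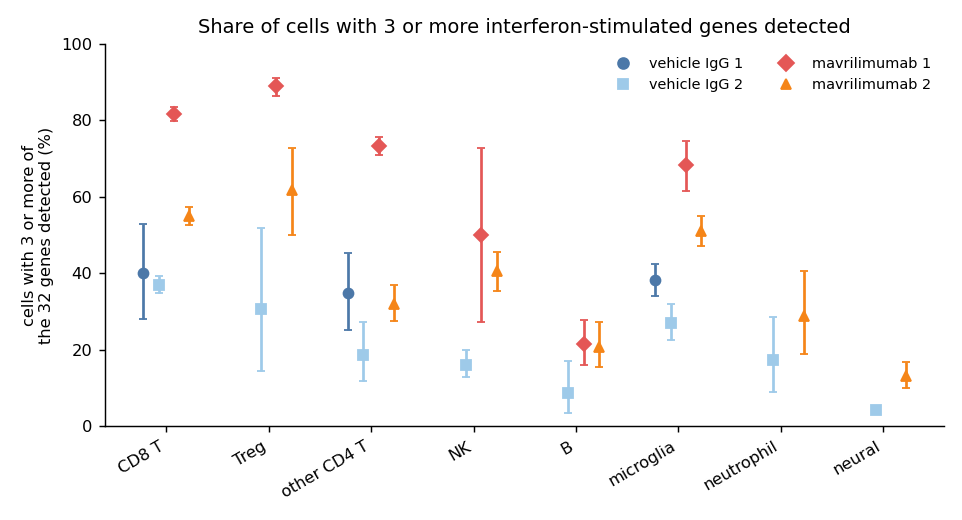
Percent of cells with at least 3 of the 32 members after thinning to 1000 UMIs (500 in neutrophils), per cell group and library, with 95% Clopper-Pearson intervals that cover counting error only. In CD8+ T cells the libraries labelled mavrilimumab lie at 81.8% and 54.9%, above both libraries labelled vehicle IgG at 40.0% and 37.1%.

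The number of member UMIs per thinned CD8+ T cell had a median of 2, 2, 9 and 4 in the 4 libraries. The 10th percentile was 0, 0, 2 and 0, and the 90th was 11.6, 9, 24 and 14. In mavrilimumab 1 the whole distribution thus lay higher, lower tail included, while in mavrilimumab 2 the median and upper tail were higher and the 10th percentile remained at 0.

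Cells were unequal in every library. CD8+ T cells without any member UMI made up 12.3%, 20.3%, 3.25% and 14.0%, where equal cells at the same mean would give 1.21%, 2.42%, 0.0015% and 0.29% by the Poisson distribution. The variance divided by the mean was 7.52, 8.20, 8.30 and 7.85, against 1 for equal cells. The top 10% of CD8+ T cells held 44.9%, 45.3%, 29.6% and 37.5% of the member UMIs.

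In other CD4+ T cells the medians were 2, 1, 7 and 2 and the 90th percentiles 7.6, 4.3, 30 and 12. Only the mavrilimumab 1 median stood above both vehicle medians. In microglia the medians were 2, 1, 5 and 3, and in Treg cells they were 2 in vehicle IgG 2, 11 in mavrilimumab 1 and 6 in mavrilimumab 2.

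**Figure D2:**
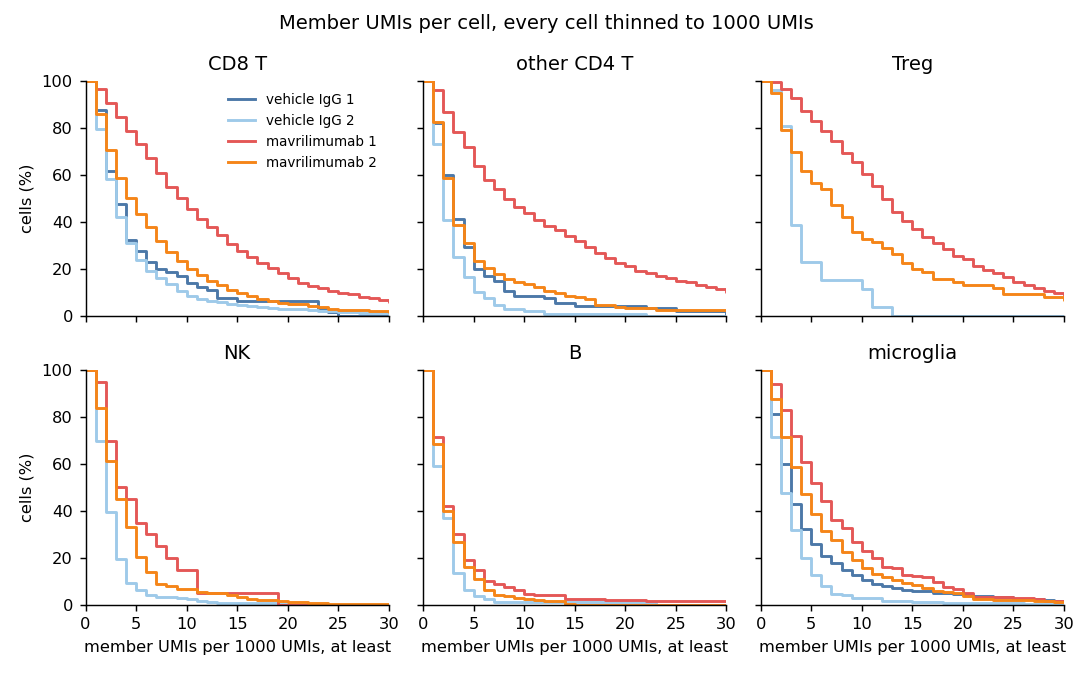
Percent of cells with at least a given number of member UMIs, each cell thinned to 1000 UMIs, 1 line per library. The panels are CD8+ T, other CD4+ T, Treg, NK and B cells and microglia, and libraries under 20 cells are not drawn. The CD8+ T cell line of mavrilimumab 1 runs to the right of the others, with a median of 9 member UMIs against 2 in both libraries labelled vehicle IgG.

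The members were found together in the same cells. CD8+ T cells with Isg15, a ubiquitin-like modifier, held on average 12, 9.58, 15.2 and 12 UMIs of the other 31 members, and those without it held 2.75, 2.33, 6.21 and 3.57. In microglia the averages were 12.9, 6.48, 14.5 and 12.2 with Isg15 and 3.07, 1.70, 4.90 and 3.88 without it. Cells that held Isg15 were higher in each of these 8 sums of cells, and CD8+ T cells without Isg15 in mavrilimumab 1 still held more than those of the other libraries. These are averages over cells of a library, with no test.

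The level also varied with the state of the CD8+ T cells. Cells with Pdcd1, an inhibitory receptor of activated and exhausted T cells, held a mean of 9.06, 4.60, 11.2 and 8.96 member UMIs per 1000 (16, 295, 658 and 495 cells). Cells without it held 2.90, 3.54, 11.1 and 4.61 (49, 1437, 1217 and 1260 cells). The Pdcd1 cells were higher in 3 libraries, while in mavrilimumab 1 both kinds of cell were about level.

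Cells with the cytotoxic protease Gzmb and no Pdcd1 held 6.25, 5.07, 12.7 and 6.71, and cells with the proliferation marker Mki67, which may also belong to another state, 6.67, 4.00, 10.6 and 7.23. Within Pdcd1 cells vehicle IgG 1, with 16 cells, lay just above mavrilimumab 2, so the treatment groups overlapped there. Cells without Pdcd1 gave groups that did not overlap. The states were set by detection at each cell's full depth, so deeper cells entered them more readily, the split by Pdcd1 alone was chosen after values of these data were seen, and no test was made.

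**Figure D3:**
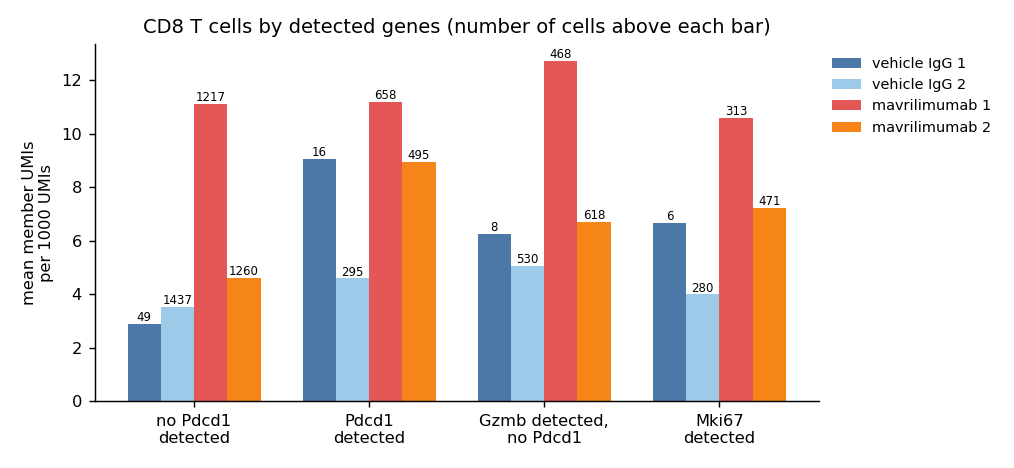
Mean member UMIs per CD8+ T cell after thinning to 1000 UMIs, by detected genes and library, with the number of cells above each bar. Cells without Pdcd1 hold 2.90 and 3.54 UMIs in the libraries of the vehicle IgG label and 11.1 and 4.61 UMIs in those labelled mavrilimumab.

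Summed over all cells of a group, the 32 members together were highest in mavrilimumab 1 in CD8+ T, other CD4+ T, Treg and NK cells and microglia. In B cells, over the 3 libraries with at least 20 cells, they were highest in mavrilimumab 2. In CD8+ T cells they reached 4591, 3562, 10818 and 6284 CPM, a mean of 8551 ± 3206 (SD, n = 2) in the libraries labelled mavrilimumab against 4077 ± 728 (SD, n = 2), a ratio of 2.10. In other CD4+ T cells the sums were 4133, 1765, 11827 and 5055 CPM, a ratio of 2.86. In microglia they were 5040, 2335, 7017 and 5360 CPM, a ratio of 1.68.

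The groups did not overlap in these 3 cell groups, with an exact two-sided permutation p of 0.333 in each, again the smallest possible. Vehicle IgG 1 and mavrilimumab 2 lay close together in microglia. In bulk sums of this kind fewer responding cells and less RNA per cell cannot be told apart.

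In Treg cells, CD4+ cells that restrain immune responses through Foxp3, the sums were 2684 CPM in vehicle IgG 2, 13745 in mavrilimumab 1 and 10507 in mavrilimumab 2. In NK cells, innate killer lymphocytes, they were 1652, 3847 and 3586 CPM, and in B cells 1256, 2000 and 2607 CPM. The sums of vehicle IgG 1, left out for its few cells, were 6248 CPM in 13 Treg cells, 1529 CPM in 4 NK cells and 2620 CPM in 8 cells of the B cell gate. The Treg sum thus lay between the other vehicle library and both mavrilimumab libraries. The sum of the B cell gate lay above all 3 others, in cells where most B cell markers were not detected. With free RNA subtracted, an alternative chosen after seeing the data, the ratio in CD8+ T cells was 1.88. The estimate there was 26.9% in vehicle IgG 2, whose sum went from 3562 to 4508 CPM. It was 0.0% in vehicle IgG 1, by the neutrophil list, and that sum stayed at 4591 CPM. The ratio therefore cannot check free RNA in vehicle IgG 1.

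**Figure D4:**
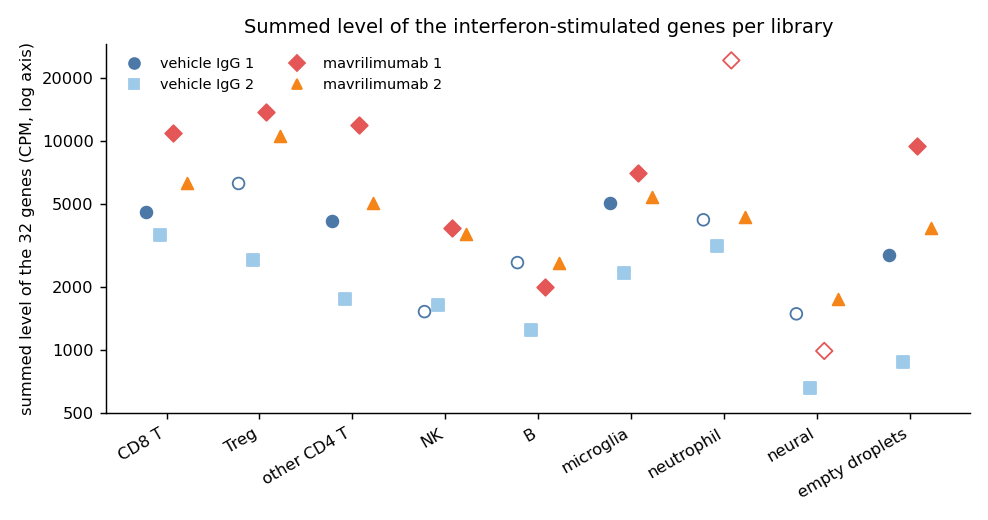
Summed CPM of the 32 members in each cell group, 1 point per library on a log axis, with libraries under 20 cells drawn open. In CD8+ T cells the points lie at 3562 and 4591 CPM for vehicle IgG and at 6284 and 10818 CPM for mavrilimumab.

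Gene by gene, all 32 members were higher on average under mavrilimumab in CD8+ T cells, but no member and no gene passed the test. The median log2 fold change was 1.17, with members between 0.55 and 1.65. The comparison used edgeR's quasi-likelihood test on the 4 sums with Benjamini-Hochberg adjustment over 12160 genes, of which it called 0%, the adjusted p of the members being 0.90 or higher. At an unadjusted p under 0.05, 18 members were higher, where 1.41% of all genes were. Leaving out mavrilimumab 1 brought the median log2 fold change to 0.74, with 31 members higher and 1 lower. Over the 4 libraries left out in turn the median ran from 0.74 to 1.52. The DESeq2 Wald test called 4 members, all higher, and 0.222% of all genes, 22 of those 27 genes being lower. In 23 of 32 members both mavrilimumab libraries lay above both vehicle libraries, where 14.3% of all genes did.

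Ifi27l2a, a small interferon-induced membrane protein, stood at 877, 646, 1897 and 1421 CPM in CD8+ T cells, a log2 fold change of 1.17 (SE 0.27). Isg15 stood at 186, 324, 1068 and 510 CPM (1.65, SE 0.48). Bst2, or tetherin, which holds budding virus at the membrane, stood at 311, 320, 896 and 402 CPM (1.07, SE 0.40). In these 3 genes the groups did not overlap, though mavrilimumab 2 lay nearer to the vehicle libraries than to mavrilimumab 1 for Isg15 and Bst2.

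Ifi203, of the family of DNA-binding Ifi200 proteins, stood at 470, 256, 596 and 426 CPM, so that vehicle IgG 1 lay above mavrilimumab 2. Near-identical copies in this family can share reads, as can Ifit3 and Ifit3b, Oas1a and its paralogs, and the Slfn, Trim30 and Phf11 clusters, so single values of these genes are uncertain.

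The members are given next by role. Among the genes of signaling and transcription, Irf7, the transcription factor that amplifies interferon output, stood at 250, 146, 631 and 306 CPM (log2 fold change 1.29, SE 0.44), and Stat2 at 58.9, 47.4, 152 and 62.6 CPM (1.06, SE 0.44). Both had groups that did not overlap, by a narrow margin in Stat2, where mavrilimumab 2 lay just above vehicle IgG 1. Irf9 completed this role, whose median log2 fold change was 1.06.

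Usp18, which removes Isg15 from proteins and silences the receptor, stood at 86.7, 84.0, 286 and 162 CPM (log2 fold change 1.43, SE 0.30), with the vehicle libraries close together and both mavrilimumab libraries above them. The 4 sensors of RNA and DNA (Dhx58, Ifih1, Zbp1 and Ifi203) had a median log2 fold change of 1.30.

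The 11 genes that bind or cut RNA or act on nucleotides (the Ifit and Oas genes, Isg20, Rsad2 and Cmpk2) had a median of 1.23, in a range of 0.65 to 1.65. Ifit3, which helps Ifit1 to bind foreign RNA caps, stood at 165, 90.2, 402 and 200 CPM (1.29, SE 0.45). The 12 membrane, GTPase and other effectors (Mx1, Bst2, Trim30a, Slfn5, Slfn8, Parp14, Lgals3bp, Ifi44, Ifi27l2a, Xaf1, Rtp4 and Phf11b) had a median of 1.06.

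**Figure D5:**
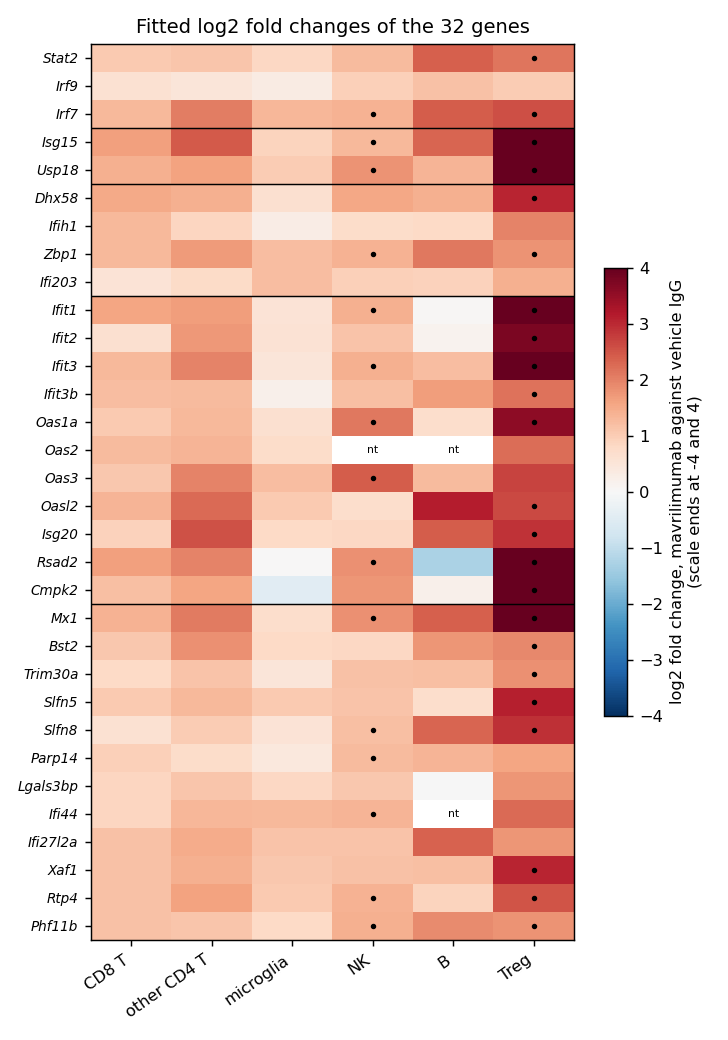
Heat map of the log2 fold change of each member, mavrilimumab against vehicle IgG, by role in each tested cell group. The color scale is cut at both ends, so the largest Treg values share the end color. Black dots mark genes at an adjusted p under 0.05 in edgeR's quasi-likelihood test. Values lie above 0 for 32 of 32 members in CD8+ T, other CD4+ T and Treg cells. Dots occur in Treg cells (23) and NK cells (15), where the fit holds 1 vehicle library.

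Other CD4+ T cells gave the same count of higher members, 32 of 32, with a median log2 fold change of 1.45 and none called. edgeR's quasi-likelihood test called 0% of 10369 genes, 15 members had an unadjusted p under 0.05 (1.75% of all genes were higher at that p), and the DESeq2 Wald test called 1 member (0.0964% of all genes). In 21 of 32 members the groups did not overlap upward, against 12.2% of all genes.

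Here Ifi27l2a stood at 898, 627, 2838 and 1320 CPM (log2 fold change 1.47, SE 0.45). Isg15 stood at 210, 33.0, 1034 and 350 CPM (2.46, SE 0.86), and Bst2 at 199, 125, 830 and 310 CPM (1.82, SE 0.51). In all 3 both mavrilimumab libraries were above both vehicle libraries, and mavrilimumab 1 was the highest.

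Ifi203 stood at 439, 175, 627 and 396 CPM, and Stat2 at 82.5, 19.8, 175 and 62.5 CPM, and in both vehicle IgG 1 lay above mavrilimumab 2. Irf7 stood at 167, 29.7, 617 and 235 CPM. These sums included 108 cells in vehicle IgG 2, the library with the lowest values. Without vehicle IgG 1 the median log2 fold change was 2.53, and without mavrilimumab 1 the lowest of the leave-one-out values, 0.91, was obtained. Without mavrilimumab 1, 30 members were higher and 2 lower, and without vehicle IgG 2 the median was 1.15.

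In microglia 31 of 32 members were higher on average, with a median log2 fold change of 0.79 and none called. edgeR's quasi-likelihood test called 0% of 12373 genes, and 3 members had an unadjusted p under 0.05 (1.26% of all genes were higher at that p). The DESeq2 Wald test called 0 members (0.115% of all genes). In 18 of 32 members the groups did not overlap upward, against 12.9% of all genes. With free RNA subtracted this held for 13 members. The share of all genes was not computed at that setting, so whether 13 exceeds it cannot be told.

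Lgals3bp, a secreted glycoprotein, stood at 614, 327, 948 and 657 CPM (log2 fold change 0.83, SE 0.42) in microglia. Ifi27l2a stood at 434, 343, 825 and 798 CPM (1.13, SE 0.27) and Bst2 at 511, 374, 901 and 561 CPM (0.79, SE 0.36). Ifi27l2a separated the groups most clearly of the 3, since both mavrilimumab libraries lay close together.

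Trim30a, a regulator of Toll-like receptor signaling, stood at 349, 118, 352 and 274 CPM, Irf7 at 193, 59.8, 376 and 243 CPM, and Usp18 at 99.7, 48.8, 160 and 130 CPM. For Trim30a vehicle IgG 1 lay level with mavrilimumab 1. A further 7 members, named after their values were seen, were highest by CPM in vehicle IgG 1: Ifit2, Ifit3, Ifit3b, Rsad2, Cmpk2, Ifih1 and Slfn8, the last by a narrow margin. Counted by thinned cells, the order differed in part. Ifit2 was found in 9.82%, 4.17%, 15.05% and 12.30% of microglia. Ifit3, Ifit3b and Rsad2 were likewise less frequent in vehicle IgG 1 than in both mavrilimumab libraries. For Ifih1 vehicle IgG 1 lay between the mavrilimumab libraries, and Cmpk2 and Slfn8 remained most frequent in vehicle IgG 1. These shares were not tested.

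Ifit2 stood at 293, 46.1, 253 and 238 CPM and Rsad2, or viperin, at 122, 17.2, 70.5 and 67.9 CPM. In both genes the vehicle libraries thus lay on either side of both mavrilimumab libraries. Without vehicle IgG 1 edgeR's test called 26 of 32 members (13.4% of all genes, median log2 fold change 1.56), and without vehicle IgG 2 it called 5, of which 3 were higher and 2 lower (7.97% of all genes, median 0.35, 21 of 32 members higher).

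In Treg cells all 32 members were higher than in vehicle IgG 2, the vehicle library with at least 20 cells, and 23 passed the test, but none did once vehicle IgG 1 was let in. The median log2 fold change was 2.62 in edgeR's fit against vehicle IgG 2. The test compared 26 cells of vehicle IgG 2 with 722 and 76 cells under mavrilimumab, and it called 3.39% of 8947 genes. With 1 vehicle library in Treg, NK and B cells, the spread in these fits came from the mavrilimumab pair alone, and the vehicle library was assumed to vary like that pair. At an unadjusted p under 0.05, 31 members were higher, where 8.56% of all genes were. Every mavrilimumab library lay above vehicle IgG 2 in 32 of 32 members, where 45.8% of all genes did so.

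With sums of at least 5 cells, an alternative chosen after seeing the data, the 13 Treg cells of vehicle IgG 1 entered the fit with 134447 UMIs. edgeR's test then called 0 of 31 members and 0% of 6462 genes, the lowest adjusted p of a member being 0.30. The median log2 fold change was 1.50 and all 31 were higher on average, 23 of them at an unadjusted p under 0.05, where 3.3% of all genes were higher at that p. Both mavrilimumab libraries lay above both vehicle libraries in 27 of 31 members, against 21.2% of all genes. In vehicle IgG 1 Isg15 stood at 141 CPM and Irf7 at 149 CPM, below both mavrilimumab libraries, while Cmpk2 stood at 119 CPM, above both. The values that follow are those of the fit against vehicle IgG 2.

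Isg15 rose from 41.0 CPM to 939 and 624 CPM (log2 fold change 4.26, SE 0.62, edgeR adjusted p = 4.4e-05). Irf7 rose from 92.2 to 686 and 409 CPM (2.58, SE 0.53, edgeR adjusted p = 0.0031), and Stat2 from 41.0 to 217 and 139 CPM (2.15, SE 0.58). Bst2 rose from 184 to 899 and 480 CPM (1.91, SE 0.49). Both mavrilimumab libraries were above vehicle IgG 2 in each, where Isg15 and Stat2 rest on 4 counts each. In vehicle IgG 1 Bst2 stood at 439 CPM, close to mavrilimumab 2. Among thinned Treg cells Bst2 was found in 30.8% in vehicle IgG 2, 49.9% in mavrilimumab 1 and 18.4% in mavrilimumab 2.

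Ifi27l2a, at 1209, 4479 and 3610 CPM, did not pass (edgeR adjusted p = 0.069), and neither did Ifi203, at 225, 614 and 584 CPM (edgeR adjusted p = 0.077). The vehicle sum held 97616 UMIs, and the median member count in it was 3.5. Of the called members, Mx1, a gene of the interferon-induced GTPase family, was not counted in vehicle IgG 2 and was at least 4.02-fold higher against a floor of 3 counts (30.7 CPM). On the same floor Cmpk2, a mitochondrial nucleotide kinase, was at least 2.87-fold higher and Rsad2 at least 2.47-fold higher.

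Ifit3 was counted once in vehicle IgG 2, a ratio of 43.0 (counting interval 7.71 to 1697), as were Ifit1, with a ratio of 35.4 (6.36 to 1400), and Usp18, with a ratio of 21.1 (3.80 to 835). In vehicle IgG 1, left out of this fit, Ifit3, Ifit1 and Usp18 stood at 74.4, 134 and 81.8 CPM. Ifit3 was found in 23.1% of its thinned Treg cells, against 28.4% in mavrilimumab 1 and 19.7% in mavrilimumab 2. In vehicle IgG 2, 13 members in all had 1 to 3 counts and 3 had none. With these 3 at their bound the median log2 fold change was 2.26. The calls were lost when the 5% of cells with the most UMIs were left out (0 called), though the median log2 fold change was then 2.54, and the DESeq2 Wald test called 4 members (1.42% of all genes).

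In NK cells all 31 members tested were higher than in vehicle IgG 2 and 15 passed the test, with a median log2 fold change of 1.28. edgeR's test called 10.5% of 11408 genes there, and 1136 of those 1200 genes were lower under mavrilimumab. At an unadjusted p under 0.05, 28 members were higher, where 2.33% of all genes were. In 28 of 31 members the mavrilimumab libraries were above the vehicle library, against 25.1% of all genes. The sums held 441 cells of vehicle IgG 2, 20 of mavrilimumab 1 and 368 of mavrilimumab 2.

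Usp18 rose from 34.5 CPM to 115 and 120 CPM (log2 fold change 1.80, SE 0.44, edgeR adjusted p = 0.00075). Oas3 and Oas1a, which make the second messenger that activates RNase L, rose from 5.51 to 33.0 and 28.1 CPM (2.41, SE 0.76) and from 12.4 to 41.2 and 56.6 CPM (2.11, SE 0.57). Rsad2 rose from 9.65 to 33.0 and 34.2 CPM (1.84, SE 0.63). In these 4 genes both mavrilimumab libraries lay above the vehicle library, but the mavrilimumab 1 values rest on 14 UMIs for Usp18, 4 for Oas3, 5 for Oas1a and 4 for Rsad2, from 20 cells.

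Mx1 also passed, at 16.5, 16.5 and 70.1 CPM (log2 fold change 1.83, SE 0.51), but its mavrilimumab 1 value did not lie above the vehicle library. Phf11b rose from 31.7 to 132 and 69.2 CPM (1.42, SE 0.44), and Isg15 from 91.0 to 288 and 191 CPM (1.31, SE 0.42, edgeR adjusted p = 0.020).

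The NK members with the most counts were not called: Ifi203 stood at 207, 420 and 392 CPM, Lgals3bp at 172, 371 and 364 CPM, Bst2 at 170, 371 and 262 CPM, and Isg20, an exonuclease, at 134, 239 and 240 CPM. All were lowest in the vehicle library. With free RNA subtracted 3 members were called (2.34% of all genes), and the DESeq2 Wald test called 0 (2.37% of all genes).

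In B cells, the antibody lineage, 30 members were tested, 28 were higher on average and none was called. edgeR's test called 0% of 10624 genes, 4 members had an unadjusted p under 0.05 (0.781% of all genes were higher at that p), and the DESeq2 Wald test called 0. In 18 of 30 members the groups did not overlap upward, against 11.3% of all genes. The median log2 fold change was 1.31, in a range of -1.27 to 3.13. With the 8 cells of vehicle IgG 1 let in, 8 of 27 members did not overlap upward (3.11% of all genes), the median was 0.97, and none was called (0% of all genes). Most B cell markers were not detected in those 8 cells.

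Ifi27l2a stood at 163, 555 and 366 CPM in B cells, Bst2 at 141, 283 and 285 CPM, Ifi203 at 120, 56.5 and 342 CPM, and Lgals3bp at 198, 96.3 and 172 CPM. The first 2 were lowest in the vehicle library, while for Ifi203 and Lgals3bp mavrilimumab 1 was the lowest. That library's B cell gate held as much of the microglia list as of its own, with a median of 14469 UMIs per cell, and the part of other cells in its values was not tested.

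Within the same libraries some members also differed between cell groups, at shares that are to be read against those of all genes. Between CD8+ and other CD4+ T cells edgeR, with the library as a block, called 8 of 32 members, where 10.2% of all genes were called. CD8+ T cells were higher in 7 (5.57% of all genes) and lower in 1 (4.6%). Usp18 was higher by 1.06 on the log2 scale (SE 0.14), Isg20 by 1.08 (SE 0.29), Mx1 by 0.87 (SE 0.24), Lgals3bp by 0.75 (SE 0.13) and Bst2 by 0.62 (SE 0.15), together with Xaf1 and Rtp4. Slfn5, a Schlafen family protein, was lower, at -0.82 (SE 0.13). Over all 32 members the median was 0.42. Without vehicle IgG 1, or without mavrilimumab 2, 4 members were called (8.54% and 6.4% of all genes).

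Treg cells exceeded other CD4+ T cells in 3 called members, with 3.49% of all genes called higher and 5.83% in either direction, over 3 libraries. These were Ifi27l2a, at 0.93 (SE 0.15), Oas1a, at 0.92 (SE 0.25), and Phf11b, at 0.75 (SE 0.20). Without mavrilimumab 1 none was called (0.402% of all genes), without vehicle IgG 2 there was 1 call (4.25%), and without mavrilimumab 2 there were 2 (4.96%). Each of these fits held 2 libraries.

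Microglia and CD8+ T cells differed in 14 called members, where 48.6% of all genes were called, so the share of members was no higher than that of all genes and is no result about the members. Microglia were lower in 9, with 22.0% of all genes called lower, and higher in 5, with 26.6% of all genes called higher. Ifi203 stood at -4.03 on the log2 scale (SE 0.54), Isg20 stood at -2.95 (SE 0.22), Oas3 at -1.92 (SE 0.17) and Zbp1, a sensor of left-handed nucleic acid, at -1.56 (SE 0.23).

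Lgals3bp was higher in microglia by 1.99 (SE 0.21) and Oas2 by 1.49 (SE 0.21). The median over members was -0.13, and without mavrilimumab 1 it was 0.12. Without mavrilimumab 2 the calls numbered 7 (30.8% of all genes). A test of whether the treatment difference itself differed between microglia and CD8+ T cells called no member (edgeR, 0% of all genes; 1 member at an unadjusted p under 0.05, against 4.54% of all genes). Between other CD4+ and CD8+ T cells it also called none (0.0374% of all genes; 5 members at an unadjusted p under 0.05, against 4.36%).

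The rest of the pathway was read from separate lists. Of 22 other type I targets tested in CD8+ T cells, 22 were higher on average and 0 called, their median log2 fold change being 0.87. The counts were 22 of 22 in other CD4+ T cells (1.06) and 23 of 23 in microglia (0.54), also with 0 called, and 18 of 22 in B cells, with 4 lower, a median of 0.60 and 0 called. Against vehicle IgG 2 alone, 10 of 22 were called in Treg cells (3.39% of all genes), among them Ddx60, Ifit1bl1 and Herc6, and 6 of 22 in NK cells (10.5% of all genes), among them Mx2 (log2 fold change 3.15), Oasl1 (2.42) and Ddx60 (1.37). All called genes were higher under mavrilimumab.

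Targets shared with interferon gamma, such as the guanylate-binding proteins, were read in the same way. In CD8+ T cells 20 of 20 were higher and 0 called, and the median log2 fold change was 0.81. In other CD4+ T cells 19 of 20 were higher (median 1.13), in B cells 15 of 18 (1.16) and in microglia 16 of 20 (0.20), with 0 called in each. In Treg cells 13 of 21 were called against the 26 cells of vehicle IgG 2 (3.39% of all genes), and Cxcl10, a chemokine for T cells, Irgm2 and Gbp5 were not counted in vehicle IgG 2. In NK cells 4 of 19 were called (10.5% of all genes), among them Cxcl10 (3.21), Gbp6 (2.02) and Gbp9 (1.45). With vehicle IgG 1 let in, no gene was called in Treg cells, so the Treg calls of both lists were lost. These lists were chosen with earlier results known, and they do not tell type I from type II interferon.

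Of the receptor chains, kinases, sensors and adaptors, 0 were called in any of the 6 cell groups, with medians of 0.16 to 0.54. Ifnar1 stood at 101, 48.8, 89.3 and 67.1 CPM in CD8+ T cells (0.15, SE 0.38) and Ifnar2 at 139, 140, 180 and 133 CPM (0.21, SE 0.21). For both chains the groups overlapped.

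Transcripts of interferon beta and alpha were nearly undetected, while those of interferon gamma were counted in every library. Ifnb1, interferon beta, had 12, 9, 1 and 2 UMIs over all kept cells, and the 12 in vehicle IgG 1 came from 1 microglial cell. The 14 interferon alpha genes together had 0, 3, 0 and 1 UMIs. Ifng, the type II ligand of T and NK cells, had 82, 551, 1199 and 1792 UMIs, and in CD8+ T cells it stood at 16.1, 45.6, 59.0 and 44.5 CPM, so that its groups overlapped. At these counts no treatment difference in Ifnb1 or the alpha genes was detectable.

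Neutrophils and neural cells had at least 20 cells in 1 library of each treatment, vehicle IgG 2 and mavrilimumab 2, and give values with no test. In neutrophils, short-lived granulocytes with little RNA, the members summed to 3155 and 4342 CPM. With free RNA subtracted, again an alternative chosen after seeing the data, the mavrilimumab minus vehicle difference changed sign, from 1187 to -723 CPM. Free RNA was estimated at 53.7% of the neutrophil UMIs in vehicle IgG 2.

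Isg15 in neutrophils stood at 665 CPM in vehicle IgG 2 and 571 CPM in mavrilimumab 2. In neural cells the members summed to 658 and 1754 CPM, and Isg15 stood at 153 and 431 CPM. Free RNA was estimated at 57.8% of the neural-gate UMIs in vehicle IgG 2 and at 0.99% in mavrilimumab 2.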

How the data were processed

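The authors aligned reads with Cell Ranger, named as 7.1.0 in the processing notes with build mm10 and as 9.0.1 in the matrix headers, and deposited unfiltered UMI counts per gene and barcode. Receptor contig files were used for barcodes alone. Cells had at least 1000 UMIs (500 for neutrophils), 200 to 6000 genes and at most 10% mitochondrial UMIs. Cells in more than 1 gate were left out, and no doublet caller was run. The gates were Cd3e with at least 2 Cd8a or Cd8b1 UMIs (CD8+ T), Cd3e with Foxp3 (Treg), Cd3e with Cd4 and without these (other CD4+ T), at least 2 Ncr1 or Klrb1c UMIs without Cd3e (NK), at least 2 UMIs of Cd79a or Cd79b (B), of P2ry12 or Tmem119 (microglia) or of Retnlg or Cxcr2 (neutrophil), and at least 3 Nnat or Mdk UMIs without Ptprc (neural).

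Counts were summed per library and gate (at least 20 cells) and tested with edgeR 4.0.16 in R 4.3.3: TMM, filterByExpr, quasi-likelihood F test, Benjamini-Hochberg over all genes of a cell group, threshold 0.05. DESeq2 1.42.0 was an alternative. Treatment fits needed at least 3 libraries, and groups with fewer were not tested. Treg against other CD4+ T cells, which had 3 libraries, was fitted with 2 when 1 was left out. SE is the log2 fold change divided by the square root of F. Shares used Python 3.11.15 with scipy 1.17.1, exact permutation tests over libraries, and Clopper-Pearson intervals, which like floors of 3 counts cover counting error only. The code was tested on simulated counts. The members and all gene lists were chosen with earlier results of these data known. Genes were named by rule: in each cell group, up to 6 called members by fold change and the 4 with the highest mean CPM, plus Isg15, Irf7, Ifit3, Usp18, Stat2, Ifnar1, Ifnar2, Ifng, Ifnb1 and up to 3 called genes per other list. Total UMIs per library ran from 24354457 to 148657643. Alternatives covered scaling, filters, gates, depth, free RNA, each library left out and a replicate block.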

Additional observations from a re-analysis of the deposited data

Results flagged for a closer look

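Member transcripts were present in data outside the comparisons. In barcodes with 1 to 100 UMIs, which mostly hold free RNA, the 32 members summed to 2833 CPM in the library labelled vehicle IgG 1, 875 CPM in vehicle IgG 2, 9398 CPM in mavrilimumab 1 and 3825 CPM in mavrilimumab 2. Their part in the cell values was not tested beyond the subtraction described. Neutrophils of 2 libraries had under 20 cells and entered no comparison: the members summed to 4192 CPM in 10 cells of vehicle IgG 1 and to 24145 CPM in 13 cells of mavrilimumab 1, where Isg15 alone stood at 4463 CPM. The depth of these 13 cells was 30027 UMIs in all.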

How the results depend on the processing

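Of 244 values under the alternatives run, 201 kept their direction and their side of the threshold, or moved by less than the spread, and 43 did not: 16 were weaker, 7 stronger, 18 moved by more than the spread and 2 were reversed. With no filter on low counts, edgeR called 14 members in CD8+ T cells (1.98% of all genes) and 24 in other CD4+ T cells (2.72%), and the DESeq2 Wald test called 4 and 1, where edgeR called 0. The 23 Treg calls became 29 with no filter (4.05% of all genes), 15 with RLE size factors (2.53%), 2 when cells took the first gate they met (0.663%), 7 at a minimum of 2000 UMIs (1.54%), 0 without the top 5% of cells by UMIs (0.0607%), 7 with free RNA subtracted (1.06%), 4 with DESeq2 (1.42%) and, chosen after seeing the data, 0 with sums of at least 5 cells (0%), which added vehicle IgG 1 (median log2 fold change 1.50). The 15 NK calls became 3 with free RNA subtracted (median log2 fold change 1.08) and 0 with DESeq2. The B cell median was 0.97 with sums of at least 5 cells and 0.76 with the first gate, both with vehicle IgG 1 in the fit, and it was 1.75 with stricter gates and 0.75 without the top 5%. Free RNA subtraction, chosen after seeing the data for sums, gave -723 CPM in neutrophils, a reversal, and 1215 CPM in neural cells. It left 4 called members between CD8+ and other CD4+ T cells (8.83% of all genes). Between Treg and other CD4+ T cells it left 1 (4.11%), where RLE gave 5 (6.32%). The NK share difference was 23.5 points at 2000 UMIs and 20.9 points without the top 5%, both with mavrilimumab 1 lost for having fewer than 20 cells, and 24.4 points without that library alone, and the neural one 21.2 points at 1 or more members and 3.02 points at 5 or more. The cause was not tested.

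Leaving out each library gave Treg share differences of 31.1 to 58.2 points and median log2 fold changes of 0.91 to 2.53 in other CD4+ T cells and 0.35 to 1.56 in microglia, with 0 to 26 microglial calls. Between cell groups it gave 4 to 8 calls for CD8+ against other CD4+ T cells (5.16% to 9.05% of all genes). For Treg against other CD4+ T cells it gave 0 to 2 calls (0.402% to 4.96%) and medians of 0.13 to 0.66. For microglia against CD8+ T cells it gave 7 to 18 calls (30.8% to 59.5%) and medians of -0.55 to 0.12. The 18 calls came without vehicle IgG 1, where 40.6% of all genes were called. The microglia median was reversed at 0.12 without mavrilimumab 1. The replicate block rests on a shared number only (correlations of deviations 0.42, 0.21 and 0.40 over 2 pairs). With it the medians were 1.14 in CD8+ T cells, 1.65 in other CD4+ T cells and 0.90 in microglia. In these groups 0 members were called (0%, 0.0482% and 1.27% of all genes). An unadjusted p under 0.05 was found for 31, 31 and 19 members, and for 6.70%, 4.15% and 6.87% of all genes in either direction. The treatment fit could not be made in Treg, NK and B cells without the vehicle library or with 1 library a side. Nor could it be made in settings that left fewer than 3 libraries.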
